A study of Mus musculus with 9 samples.

Results

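The genes described here are 8 transcription factors that set up and maintain the hepatocyte programme: *Hnf4a*, *Foxa1*, *Foxa2*, *Foxa3*, *Cebpa*, *Cebpb*, *Cebpd* and *Onecut1*. They were chosen by name and found by matching the gene identifiers of the deposited tables to GENCODE M1, the annotation the counts were made on. Of these 8, 7 are listed in both tables, among 13424 genes in the table of shRNA 1 and 13478 in that of shRNA 2. The RNA came from AML12, an immortal mouse hepatocyte line (alpha mouse liver 12), grown with insulin, transferrin, selenium and dexamethasone in the medium. There were 3 groups of 3 libraries: control cells, and cells infected for 5 days with lentivirus carrying shRNA 1 or shRNA 2 against *Srrm2*. This gene encodes a scaffold protein of nuclear speckles. The control libraries are titled as control, and no day of infection is recorded for them. Each table is taken to pool 6 libraries, the control libraries with those of 1 hairpin, into a mean normalized count per gene. The titles of the control libraries give their group and name no table.

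The pooled mean is the one measurement used here, and it sets what can be said. It gives how abundant the RNA of each factor was in these cells and how far the pools with shRNA 1 and shRNA 2 were apart. It holds no value per library, so no error, test or change against control is given, and the depth of single libraries is unknown. No difference below was tested. The knockdown itself was not checked here. *Srrm2* has a pooled mean of 3428 in the table of shRNA 1 and 3759 in that of shRNA 2, in both cases a mix of control and knockdown libraries. The descriptions of control replicates 2 and 3 name a result table of shRNA 1 and tables of further hairpins in place of that of shRNA 2. Their titles put them in the control group. That all 3 control libraries are in both pools is an assumption and was not tested.

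Liver cells owe their identity to a small set of transcription factors that bind each other's regulatory regions as well as those of genes for plasma proteins and metabolic enzymes. *Foxa* proteins are pioneer factors with a forkhead domain that can bind DNA within closed chromatin, *Hnf4a* encodes an orphan nuclear receptor, C/EBP proteins are basic leucine zipper factors, and *Onecut1* (HNF6) has a cut domain and a homeodomain. *Foxa1* and *Foxa2* act early in liver specification, *Cebpa* drives metabolic genes of the mature hepatocyte, and *Cebpb* and *Cebpd* are induced in the acute-phase response.

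Members of the *Foxa* and *Cebp* families resemble each other most in their DNA-binding domains, and the authors kept uniquely mapped read pairs. The most similar coding stretch of 60 bases, found without gaps in reading frame, is shown for both families to let the likeness of the transcripts be judged. Coordinates are those of NCBIM37, the assembly of mm9, and capitals mark positions at which the family members are not all the same.
Foxa1, chr12:58643766-58643825 (- strand): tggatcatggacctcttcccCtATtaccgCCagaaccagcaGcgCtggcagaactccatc
Foxa2, chr2:147870009-147870068 (- strand): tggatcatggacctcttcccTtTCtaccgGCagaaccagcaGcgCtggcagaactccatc
Foxa3, chr7:19600048-19600107 (- strand): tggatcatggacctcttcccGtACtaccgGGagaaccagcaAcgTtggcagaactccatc
Cebpa, chr7:35905311-35905370 (+ strand): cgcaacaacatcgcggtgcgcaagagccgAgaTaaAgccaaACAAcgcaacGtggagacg
Cebpb, chr2:167515212-167515271 (+ strand): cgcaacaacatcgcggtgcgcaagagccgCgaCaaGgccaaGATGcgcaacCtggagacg
The *Foxa* stretch lies in exon 2 of 2 of *Foxa1*, exon 3 of 3 of *Foxa2* and exon 2 of 2 of *Foxa3*, and 53 of its 60 bases are the same in all 3 genes. *Foxa1* and *Foxa2* share 56 of the 60, *Foxa2* and *Foxa3* 55, and *Foxa1* and *Foxa3* 54. The stretch of *Cebpa* and *Cebpb*, both genes of 1 exon, has 52 of 60 bases in common. Even so, none of the runs of 50 bases in the longest coding transcripts of *Hnf4a*, *Foxa1*, *Foxa2*, *Foxa3*, *Cebpa* and *Cebpb* occurs in a coding transcript of another gene, and in *Onecut1* 1 of 1766 such runs does, in *Onecut3*. At 25 bases, the share of runs found elsewhere was 0% for *Hnf4a* and reached 1.73% for *Onecut1*. Coding transcripts were searched here, not the whole genome.

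The factors differed widely in abundance. *Hnf4a* was by far the highest, with a pooled mean of 1498 normalized counts in the table of shRNA 1 and 1624 in that of shRNA 2. Divided by the length of its merged exons, to allow genes to be set side by side, this is 298 and 324 normalized counts per kilobase. *Hnf4a* thus lay at percentiles 92.7 and 93.1 of all genes listed in the tables, whose medians were 43.1 and 44.8 per kilobase. *Foxa1* was the lowest of the factors listed, at 11.0 and 16.8 per kilobase, or percentiles 23.8 and 29.4. Between these ends, the level per kilobase of *Hnf4a* was 27.1 times that of *Foxa1* in the table of shRNA 1 and 19.2 times in that of shRNA 2. The order in between was close at 2 places, *Cebpb* with *Foxa2* and *Foxa3* with *Cebpa*, where the neighbours changed places from one table to the other. Apart from *Foxa1*, the other 6 of the 7 factors were above the median gene in both tables. This turned for *Cebpa* and *Foxa3*, whose percentiles averaged over the tables fell to 47.9 and 46.8 among genes at a mean of 10 or more, and to 48.8 and 42.2 without division by length. *Hnf4a* alone was within the top 10%.

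**Figure D1:**
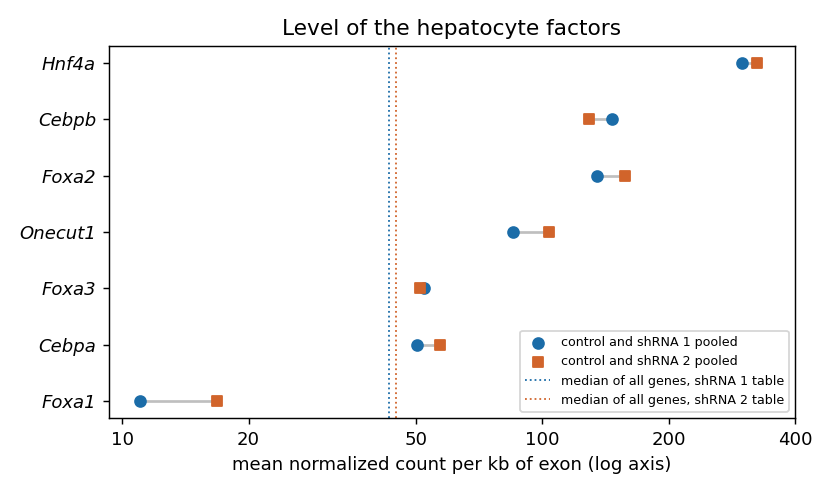
Pooled mean normalized count per kilobase of merged exon (log axis) of the 7 listed factors, as circles for control and shRNA 1 and squares for control and shRNA 2, with dotted lines at the median of all genes in each table. *Hnf4a* sits at 298 and 324, *Foxa1* at 11.0 and 16.8, and each of the others between 50.3 and 158. Points have no error bars because the tables give no value per library.

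*Hnf4a* (ENSMUSG00000017950.9, chromosome 2, 163332544 to 163398646, + strand, mm9 as for all genes below) encodes a protein that controls genes for lipoproteins, clotting factors and drug metabolism. The annotation gives it 7 transcripts, and RefSeq lists 2 starts far apart, of which the downstream one is known as the start used in adult liver. Counts per gene merge both, so the values above do not tell the starts apart.

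Among the forkhead factors, *Foxa2* predominated. *Foxa2* (ENSMUSG00000037025.5, chromosome 2, 147868613 to 147872705, - strand) had a pooled mean of 319 normalized counts with shRNA 1 and 374 with shRNA 2, or 135 and 158 per kilobase. It made up 68.0% and 69.9% of the summed level per kilobase of the 3 *Foxa* genes. *Foxa3* (ENSMUSG00000040891.5, chromosome 7, 19598631 to 19608887, - strand), the *Foxa* gene that is usually abundant in adult liver, had pooled means of 107 and 104, or 52.3 and 51.0 per kilobase, and made up 26.4% and 22.6%. *Foxa1* (ENSMUSG00000035451.6, chromosome 12, 58641618 to 58647108, - strand) had pooled means of 35.1 and 53.7 and made up 5.56% and 7.46%. In level per kilobase, *Foxa2* was 12.2 and 9.37 times as high as *Foxa1*, and 2.58 and 3.09 times as high as *Foxa3*. The 250 bases before the start of *Foxa1* are shown because it was the lowest of the factors and the one that differed most between the tables.
Foxa1 start, chr12:57546112-57546361 (- strand): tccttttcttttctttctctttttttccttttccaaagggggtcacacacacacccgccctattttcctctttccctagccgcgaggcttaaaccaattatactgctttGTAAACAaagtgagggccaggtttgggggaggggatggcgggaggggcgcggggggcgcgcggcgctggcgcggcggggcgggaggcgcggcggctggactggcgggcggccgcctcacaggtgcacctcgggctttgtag
The coordinates are those of GRCm38.p6 from RefSeq. Capitals mark TGTTTAC in the reverse orientation, beginning 141 bases before the start, letters that *Foxa* proteins themselves bind. The motifs searched on both strands were TGTTTAC (FOXA), TTGCNNAA (C/EBP) and CAAAGTCCA (HNF4), which do not contain each other. Of 32851 windows of the same length before RefSeq starts, 3.17% hold TGTTTAC, 9.56% TTGCNNAA and 0.384% CAAAGTCCA. Among the 10 windows of the 7 factors in the RefSeq table, this was the only one with a match, and 9 had none. A match of letters is not evidence of binding.

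Of the C/EBP factors, *Cebpb* was higher than *Cebpa*. *Cebpb* (ENSMUSG00000056501.3, chromosome 2, 167514415 to 167515918, + strand) had pooled means of 220 and 194 normalized counts, or 146 and 129 per kilobase. *Cebpa* (ENSMUSG00000034957.9, chromosome 7, 35904312 to 35906945, + strand) had 132 and 150, or 50.3 and 57.0 per kilobase. *Cebpb* was thus 2.91 times as high as *Cebpa* per kilobase in the table of shRNA 1 and 2.27 times in that of shRNA 2. Of the exon bases of *Cebpb*, 20.7% overlap exons of *Tmem189* on the opposite strand, which had pooled means of 82.9 and 83.2. The libraries are described as strand-specific, and the strand setting of the count is not given in the sources used here. *Cebpg*, whose protein lacks an activation domain and pairs with other C/EBP proteins, had 111 and 122 per kilobase. *Cebpg* was 0.760 and 0.940 times as high as *Cebpb* per kilobase of exon. Dividing the same counts, taken over all exons, by coding length gives 4.92 and 6.09 times. Reads from outside the coding sequence are then credited to it, so this ratio is not a level of the coding sequence. *Ddit3*, the C/EBP-related stress factor CHOP, had 144 and 118, and *Cebpz*, which carries the name without the leucine zipper, 62.9 and 67.6. *Cebpe*, a factor of granulocytes, is not listed in either table.

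*Cebpd*, the other C/EBP factor of the acute-phase response, is not listed in either table, and its level is unknown here. GENCODE M1 gives *Cebpd* (ENSMUSG00000071637.4, chromosome 16, 15887379 to 15888559, + strand) as a pseudogene, with 2 exons set 1 base apart, although it is known as a coding gene. The RefSeq starts used here cover 7 of the 8 factors and have no entry for *Cebpd*. Of the 5201 genes of the annotation typed as pseudogenes, 2 are listed in the table of shRNA 1 and 2 in that of shRNA 2, against 12628 and 12691 of the 22380 protein-coding genes. Whether *Cebpd* is missing for its annotated type or for few reads was not tested.

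*Onecut1* (ENSMUSG00000043013.7, chromosome 9, 74709728 to 74737591, + strand), a regulator of both hepatocyte and bile duct development, had pooled means of 181 and 220 normalized counts, or 85.4 and 104 per kilobase. Exons of *Gm16551*, a noncoding transcript on the same strand with pooled means of 379 and 446, cover 22.6% of its exon bases, and a count of reads per gene can lose or split reads there. The paralogue *Onecut2* was more abundant, at 235 and 268 per kilobase, or 2.76 and 2.58 times the level of *Onecut1*. The exons of *Onecut2* are far longer, most of their length outside the coding sequence. Dividing the counts over all exons by coding length gives 19.1 and 17.8 times. That ratio credits reads from outside the coding sequence to it and is not a level of the coding sequence. *Onecut3* and *Hnf4g*, the paralogue of *Hnf4a*, are not listed.

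Set beside the wider group of liver transcription factors, the 7 listed members were spread over most of its range. Of 7 paralogues of the members, 4 are listed, and their median level per kilobase was 128 with shRNA 1 and 120 with shRNA 2. The members had medians of 85.4 and 104. Of 23 other liver-enriched factors, 19 are listed, with medians of 70.3 and 82.0. The highest of these were *Nr1h4*, the bile acid receptor FXR, at 344 and 297 per kilobase, *Xbp1*, a regulator of secretory capacity, at 289 and 308, and *Hhex*, a homeobox factor of early liver, at 235 and 222. *Hnf4a* was thus at the upper end with *Nr1h4* and *Xbp1*, and *Foxa1* was near the low end.

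**Figure D2:**
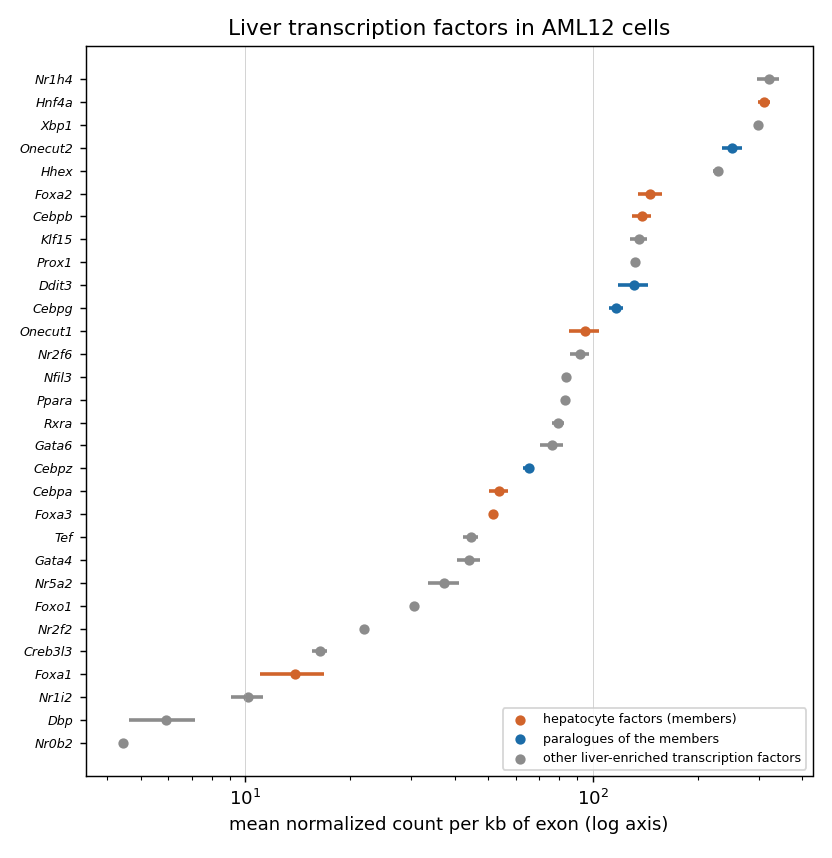
Mean normalized count per kilobase of merged exon (log axis) of the listed members, of their paralogues, and of other liver-enriched factors, sorted by the average of both tables. Points are that average and bars join the values of the 2 tables, not an error. *Hnf4a*, *Nr1h4* and *Xbp1* are at the top with values between 289 and 344, while *Foxa1* at 11.0 to 16.8 lies near the bottom.

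The cells were checked against markers of liver cell types. Of 19 hepatocyte markers, 15 are listed, among them *Alb* at 1053 and 888 normalized counts per kilobase and *Ttr* at 2049 and 2165, while *Apoa2*, *Apoc3*, *Pck1* and *G6pc* are not. Of the 15, 9 were above the median gene, 6 of them in the top 10%, and 3 had a pooled mean under 10 in each table. Beside *Alb* and *Ttr*, *Apob* was high at 1449 and 1623 per kilobase and *Hp* at 755 and 676. The low ones included *Cps1*, an enzyme of the urea cycle, at 4.71 and 3.59 per kilobase, *Tat*, which breaks down tyrosine, at 1.82 and 1.22, *Ahsg*, a plasma glycoprotein, at 5.38 and 3.47, *Fgg*, a fibrinogen chain, at 2.01 and 1.94, and *Apoa1* at 31.9 and 31.5. The highest hepatocyte markers were the keratins *Krt18*, at 7034 and 6395 per kilobase, and *Krt8*, at 4594 and 4343, which bile duct cells share. Of 5 ductal markers, 4 are listed, all above the median gene, with *Spp1* at 2448 and 2650 and *Krt19* at 1537 and 1484 per kilobase, and *Epcam* is not. *Afp*, the albumin of the fetal liver, had 5.17 and 4.04 per kilobase, *H19* had 1.27 and 1.03, and *Dlk1* is not listed. Among 7 fibroblast or stellate markers, *Vim* had 1875 and 1867 per kilobase, *Des* 2.14 and 1.51, and *Col1a1* 0.587 and 0.608. *Col1a2*, *Col3a1*, *Acta2* and *Lrat* are not listed. Of 4 leukocyte or macrophage markers, *Cd68* had pooled means of 25.1 and 29.8 normalized counts and *Ptprc* 5.30 and 5.47, and *Adgre1* and *Lyz2* are not listed. Of 4 endothelial markers (*Pecam1*, *Cdh5*, *Kdr* and *Stab2*) 0 are listed. The lowest pooled means in the tables were 1.56 and 1.92, so a gene not listed may have had few reads or may have been left out for another reason. In bulk RNA, more cells of a kind and more RNA per cell cannot be told apart.

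If the same control libraries are in both tables, a difference between the tables is that between the 2 hairpin groups, diluted by the controls. This holds as far as the controls are at the same level in both after scaling. The tables were normalized separately. They were put on 1 scale by the median ratio of 7757 genes with a pooled mean of at least 100 in both, a log2 factor of 0.07. On that scale 5 of the 7 factors were higher in the pool with shRNA 2 and 2 were lower, with a median log2 ratio of 0.11, and 51.4% of 13259 genes in both tables were higher. Of the 15 listed hepatocyte markers, 4 were higher and 11 lower in the pool with shRNA 2, with a median log2 ratio of -0.21. Among the 11, *Fgg*, *Tat* and *Ahsg* had pooled means under 10 in both tables, so their ratios rest on few counts. *Ahsg* at -0.70 and *Tat* at -0.64 had the most negative ratios of the list. Of the 3 listed fetal hepatocyte markers 0 were higher and 3 lower, with a median of -0.42. These 3 had pooled means of only 3.02 to 10.8 with shRNA 1 and 2.27 to 8.42 with shRNA 2. Their ratios rest on few counts, and no range of ratios is given for genes averaging under 10. The part of the hepatocyte and fetal markers in the differences of the factors was not tested. As both hairpins target the same gene, the comparison asks how alike the pools were.

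*Foxa1* differed most. Its pooled mean was 35.1 normalized counts with shRNA 1 and 53.7 with shRNA 2, a log2 ratio of 0.55 after scaling. With shared controls at the same level, this amounts to 32.2 normalized counts more per library in the group of shRNA 2. The same premise applies to the differences in counts below. The middle 95% of the 3680 genes with an average between 10 and 100 spanned log2 ratios of -0.53 to 0.68. *Foxa1* was at percentile 96.3 of this band. Over all 13259 genes in both tables the upper end was 0.546, beside 0.545 for *Foxa1*. The range depends on the band, and no narrower band was tried. *Cebpb* went the other way, with a log2 ratio of -0.25, or a difference of -69.3 normalized counts in the group of shRNA 2 relative to that of shRNA 1. Among the 6575 genes averaging 100 to 1000, the middle 95% spanned -0.34 to 0.30, with *Cebpb* at percentile 5.63. *Onecut1* had a log2 ratio of 0.22, at percentile 94.1 of the same genes, and the difference came to 58.8 normalized counts. *Foxa2*, at 0.16, had a difference of 74.8 normalized counts. *Cebpa* had 0.11 and *Foxa3* -0.10. *Hnf4a*, the most abundant, had 0.05, a difference of 103 normalized counts. With no scale factor *Hnf4a* had 0.12, *Foxa3* -0.03 and *Cebpa* 0.18, so which factor was nearest 0 depended on the scale. All 7 factors lay within the middle 95% of genes in their band of abundance.

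**Figure D3:**
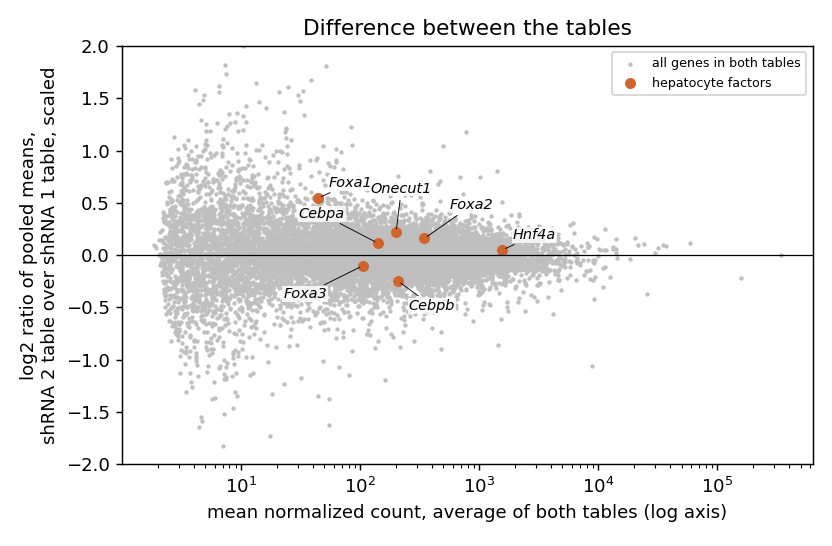
Scaled log2 ratio of the pooled means, shRNA 2 table over shRNA 1 table, against the average mean normalized count of both tables (log axis), for all genes in both tables in grey and the 7 listed factors in orange. *Foxa1* at 0.55 and *Cebpb* at -0.25 are farthest from 0 among the factors, *Hnf4a* at 0.05 is nearest on this scale (*Foxa3*, at -0.03, with no scale factor), and 7 genes lie outside the plotted range.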

How the data were processed

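RNA-seq libraries of AML12 cells were assigned to groups by their titles, which the descriptions of 2 control libraries do not bear out in full (they name tables of further hairpins), with 3 libraries each of control, shRNA 1 and shRNA 2. The authors trimmed the reads, mapped them with TopHat2 to mm9, retained read pairs with a unique position and counted these with HTSeq over the genes of GENCODE M1. DESeq2 version 1.8.2 with default parameters was then run for each hairpin against control, per the labels and the paper's methods. The authors' deposited signal (mean normalized count) is taken as the mean over 6 libraries of counts divided by size factors. The deposited tables also hold the authors' own log2 fold changes, standard errors, test statistics and p-values, which are not used here. Without counts per library, no model of the counts could be fitted.

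All 13424 and 13478 gene identifiers matched the annotation. Levels were divided by merged exon length, and percentiles are among all genes of a table. The tables were scaled by the median ratio of genes at a mean of at least 100 in both. Simulated tables built on the same controls were used to check that a known scale is recovered. They cannot show whether the controls are at the same level in the deposited tables. A doubled difference of the scaled means gives the difference of the hairpin groups if the controls are the same libraries and at the same level in both tables. Sequences came from the GENCODE M1 coding transcripts and the RefSeq promoter table.

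The factors and all lists were chosen with earlier results of these data known. All 8 factors are named whatever their values, with their paralogues, 2 further factors that are not reported here, the 3 highest other liver factors, the 2 highest genes of each marker list and *Alb*, *Ttr* and *Afp*. *Tmem189* and *Gm16551* are named for their overlap with a factor. *Cps1*, *Tat*, *Ahsg*, *Fgg*, *Apoa1*, *Apob*, *Hp*, *Col1a1* and markers that are not listed were named after their values were seen. Genes were not ranked by likeness of pattern, since 2 pooled values make none. Alternatives were other table scales, other lengths and other sets of genes to rank among. Python 3.11.15, numpy 2.4.6, pandas 2.3.3 and matplotlib 3.10.9 were used.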

Additional observations from a re-analysis of the deposited data

How the results depend on the processing

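The table scale was also taken from genes at a mean of 10 or more, from the summed means, and left out. The sign of the difference between the tables was the same for 7 of 7 factors under these 3 other scales. Each scale shifts all genes by the same amount, with log2 factors of 0.072 and 0.057, or none, in place of 0.068. No value could therefore move by 0.1 or more on the log2 scale, and the kept signs say little about robustness. With no factor, 3 small values still changed by more than 1.5 times, that of *Hnf4a* from 0.05 to 0.12, that of *Cebpa* from 0.11 to 0.18 and that of *Foxa3* from -0.10 to -0.03. Divided by the longest coding transcript, *Foxa2* took place 2 and *Cebpb* place 3 on average over the tables, which tie under merged exons. Divided by coding length, with the counts still taken over all exons, *Cebpa* took place 5 and *Foxa3* place 6, which also tie otherwise. Percentiles among protein-coding genes moved by less than 5 points for all 7 factors. Among genes at a mean of 10 or more, the percentile averaged over the tables was 47.9 for *Cebpa*, 46.8 for *Foxa3* and 15.3 for *Foxa1*. Without division by length it was 69.9 for *Foxa2*, 57.7 for *Cebpb*, 56.8 for *Onecut1*, 48.8 for *Cebpa* and 42.2 for *Foxa3*. *Cebpa* and *Foxa3* thus lay on either side of the median gene, depending on the genes ranked and on the length. No paired analysis was possible because the tables carry no value per library, and for the same reason no replicate could be left out. The error of each level and difference is therefore unknown.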
